A study of Bos taurus with 31 samples.

Results

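The 100 genes described here differed most between fetuses of the same treatment group in the liver of 31 bovine fetuses. They were chosen from a table of 27607 genes. Genes with a mean of at least 10 CPM (counts scaled to the total count of the library) were kept, the 100 most abundant genes were left out, and 8353 remained. The standard deviation (SD) of log2(CPM + 1) was taken within each of the 4 groups, the 8353 genes were ranked by the median of the 4 SDs, and the first 100 are called members below. The SD within groups therefore chose the members and is given only as a description.

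All fetuses were female and were collected on day 83 of gestation from Angus-cross heifers inseminated with semen of 1 sire. Every dam ate a total mixed ration of corn silage, triticale hay, ground corn and modified distillers grains with solubles. NoVTM_LG dams (8 fetuses) had this ration alone, for a target gain of 0.28 kg per day. VTM_LG dams (8 fetuses) had the same target gain and 0.45 kg per day of ground corn with a vitamin and mineral premix, started 71 to 148 days before insemination. NoVTM_MG dams (8 fetuses) had no premix and, from breeding, an energy and protein supplement for a target gain of 0.79 kg per day, blended from wheat midds, ground corn, dried distillers grains with solubles, urea, fish oil and ethoxyquin. VTM_MG dams (7 fetuses) had both the premix and that supplement. Both treatments ran until collection, and the 6 pairwise contrasts of the groups were the comparisons the study set out. Below, supplementation means VTM against NoVTM, and gain means MG against LG.

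The fetal liver is a metabolic organ made mostly of hepatocytes, and it is also a site of blood formation before birth. A piece of it therefore mixes hepatocytes with blood-forming, endothelial, stromal and bile duct cells. In such bulk samples, fewer cells of a type and less RNA per cell cannot be told apart. Genotype, cell composition and breeding group are not given for each sample, so their part in the spread was not tested. The gene identifiers are Ensembl bovine identifiers and 0 of them could be paired with a symbol, so no role is given for a gene, the markers of liver and blood cells could not be checked, and the 29 gene lists prepared could not be counted.

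The libraries held 13062894 to 18458776 counts, and the members averaged 148 to 10363 counts per library, with a median over members of 314. Sampling of counts alone, at the mean count of each member, would give a median SD of about 0.0814 among the members. This counting SD is on the log2 scale of the count, without the added 1. The observed SD was at least 3.98 times the counting SD in each member, with a median ratio of 9.05 against 2.36 over all 8353 ranked genes. VTM_LG replicates 4 and 7 stood apart from the rest: each of the 9 other ranked genes whose libraries fell on both sides of a wide gap, as defined below, set these 2 libraries against the other 29. Without them, 92 of the 100 members were still chosen.

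The median within-group SD ran from 0.458 to 2.22 among the members, with a median of 0.59, while the median over all ranked genes was 0.156. The means of the members ran from 10.1 to 700.5 CPM with a median of 21.4 CPM. The biological coefficient of variation, the spread between animals as edgeR estimates it beyond counting noise, had a median of 39.6% in the members and 13.9% in all 14228 genes tested, a difference that the choice of members fixes. At the edge of the ranking, ENSBTAG00000000828 and ENSBTAG00000017167 were the last genes inside, at 0.458294 and 0.457614. ENSBTAG00000009364 and ENSBTAG00000018577 were the first outside, at 0.457608 and 0.456903. The edge is thus a point on a continuous scale and separates no group of genes.

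**Figure D1:**
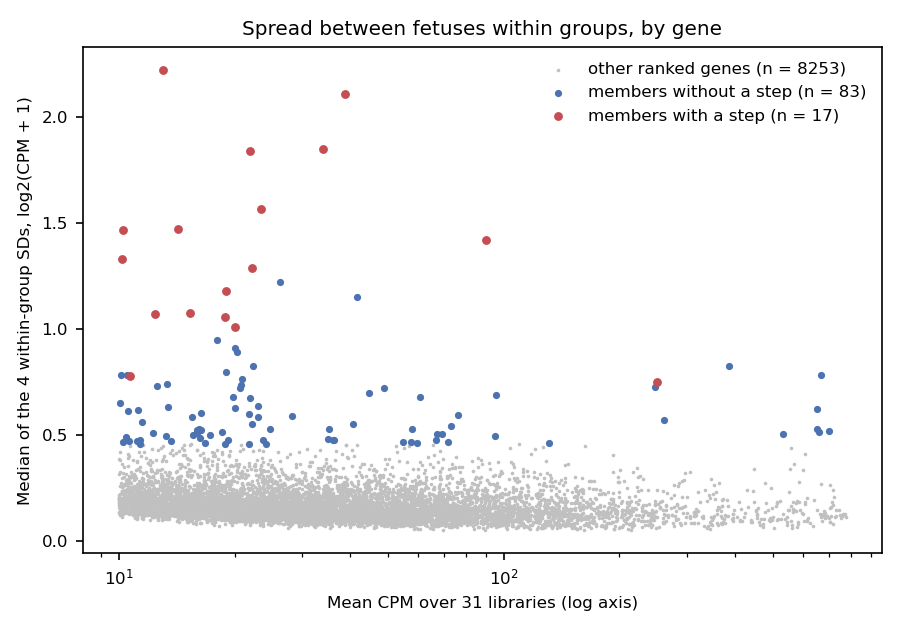
Median of the 4 within-group SDs of log2(CPM + 1), on the vertical axis, against the mean CPM over 31 libraries, on a log axis, with 1 point per ranked gene. Grey points are the 8253 ranked genes that are no members, blue points the 83 members without a wide gap and red points the 17 members with one. Red points hold the highest SDs, up to 2.22.

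The choice by the median of the 4 SDs disfavors genes that vary in 1 group only, so the split over groups is a description. The largest of the 4 SDs fell in NoVTM_LG for 20 members, VTM_LG for 31, NoVTM_MG for 24 and VTM_MG for 25. The median SD over members was between 0.57 (VTM_MG) and 0.62 (VTM_LG and NoVTM_MG). Differences between the 4 group means made up a median of 7.27% of the sum of squares of a member, against 10.3% over all ranked genes. A large spread within groups lowers this share, so nothing is read from the difference.

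A single library can raise the SD of only 1 group, so the choice of members also disfavors genes whose spread came from 1 library. The library with the largest share of the within-group sum of squares held a median of 16.4% of it, against 18.8% over all ranked genes. Nothing is read from this difference. VTM_MG replicate 4 was the highest library in 14 members and the lowest in 0. VTM_LG replicate 4 was the lowest library in 18 members and held the largest share in 10. On CPM + 1, NoVTM_MG replicate 3 was at least 2-fold below the median of all libraries in 20 members, the highest such count, against a median of 7 over the libraries.

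In a few members 1 fetus lay far from the others. ENSBTAG00000015750 had 0.508 CPM in NoVTM_LG replicate 4, while the next lowest library had 15.2 CPM and the highest 47.1 CPM. That library held 56.6% of its within-group sum of squares, although the SDs in the 3 groups without it, 0.54, 0.64 and 0.52, were also above the edge of the ranking. ENSBTAG00000043567 had 2978 CPM in VTM_LG replicate 4 and at most 1145 CPM elsewhere, and that library held 47.6%. At the other end, no library held more than 8.29% for ENSBTAG00000039664, 8.71% for ENSBTAG00000047029 or 9.41% for ENSBTAG00000019588, so the spread of these 3 was shared by many fetuses.

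The most variable members did not vary smoothly. In 17 of the 100 members, the 31 libraries fell on both sides of an empty gap of at least 1 on the log2(CPM + 1) scale, with at least 2 libraries on each side. Among all 8353 ranked genes 26 did so, which is 0.311%. Because such a gap raises the SD that chose the members, nothing is read from the difference between these shares. The 17 gaps divided the libraries in 12 different ways, and 8 of the 17 members had fetuses on both sides in all 4 groups. All 10 members with the largest SDs were among the 17. Which libraries fell together was read from the data, so the sides are not groups of the study and no test was made between them.

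ENSBTAG00000039664 had the largest SD of all ranked genes, 2.22. It had 0 counts in 8 libraries and at most 2 counts in 4 more, the latter at up to 0.153 CPM, while the other 19 libraries had 15.5 to 42.2 CPM. Fetuses on the low side numbered 4 in each NoVTM group and 2 in each VTM group, so this gene was nearly undetected in some fetuses of every treatment. A library of this size with 0 counts still allows up to 3 counts, so the gene is called undetected at this depth and not silent.

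ENSBTAG00000047029 divided the fetuses almost evenly. It had 2.62 to 5.598 CPM in 16 libraries and 49.2 to 130.1 CPM in 15. The upper side was cut at its own widest gap, 0.585 on the log2(CPM + 1) scale, which is under the 1 of a wide gap. This left 11 libraries at 49.2 to 70.2 CPM and 4 at 105.8 to 130.1 CPM. The medians of these 2 parts, 60.3 and 121.1 CPM, had a ratio of 2.01. Such a cut always gives 2 parts, so the ratio is a description, and whether the levels are distinct was not tested. Each treatment held low and high fetuses, with 3 high in each LG group, 5 in NoVTM_MG and 4 in VTM_MG.

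ENSBTAG00000049953 showed a like pattern in other fetuses. It had 0.211 to 1.26 CPM in 8 libraries, 16.1 to 26.8 CPM in 15 and 38.5 to 69.5 CPM in 8. The upper 2 parts were cut in the same way, at a gap of 0.504, and their medians had a ratio of 2.15. Of the 8 low fetuses, 4 were in VTM_MG, 2 in VTM_LG, and 1 in each of the other groups. ENSBTAG00000048692, another member, followed it with r = 0.94 over the 31 libraries: it had 7.36 to 10.6 CPM in the same 8 libraries and 15.6 to 45.5 CPM in the other 23, with no overlap. Here and below, r is Pearson's correlation of log2(CPM + 1) after the group means were subtracted, over fetuses that share a sire, and it is a description without a test.

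ENSBTAG00000039995 had 0.81 to 6.27 CPM in 10 libraries and 21.9 to 57.8 CPM in 21. The low side held 4 fetuses of NoVTM_LG, 1 of VTM_LG, 3 of NoVTM_MG and 2 of VTM_MG. In 3 members it was the high level that few fetuses had. ENSBTAG00000047383 had 0.695 to 10.2 CPM in 25 libraries and 38.9 to 58.8 CPM in 6, of which 3 were NoVTM_LG, 1 NoVTM_MG, 2 VTM_MG and 0 VTM_LG. ENSBTAG00000014862 had 5.42 to 17.3 CPM in 27 libraries and 80.6 to 83.5 CPM in 4, so the 4 high fetuses lay within a narrow range, and none of them was NoVTM_LG. ENSBTAG00000026917 had 2.68 to 89.7 CPM in 29 libraries and 310.6 and 341.2 CPM in NoVTM_MG replicate 7 and NoVTM_LG replicate 7.

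In 3 further members with a gap a minority of fetuses was low. ENSBTAG00000051519 had 1.25 to 2.04 CPM in 5 libraries, of which 3 were VTM_LG and 0 VTM_MG, and 7.58 to 31.8 CPM in 26. ENSBTAG00000054844 had 1.88 to 2.59 CPM in 5 libraries, found in all 4 groups, and 6.99 to 23.8 CPM in 26. For ENSBTAG00000030297 the 2 lowest libraries were both NoVTM_LG, replicates 1 and 5, at 26.7 and 38.2 CPM, and the other 29 had 82.8 to 693.1 CPM. The low fetuses of these 3 members overlapped only in part: VTM_LG replicate 8 was low for ENSBTAG00000051519 and ENSBTAG00000054844, and NoVTM_LG replicate 1 for ENSBTAG00000054844 and ENSBTAG00000030297.

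**Figure D2:**
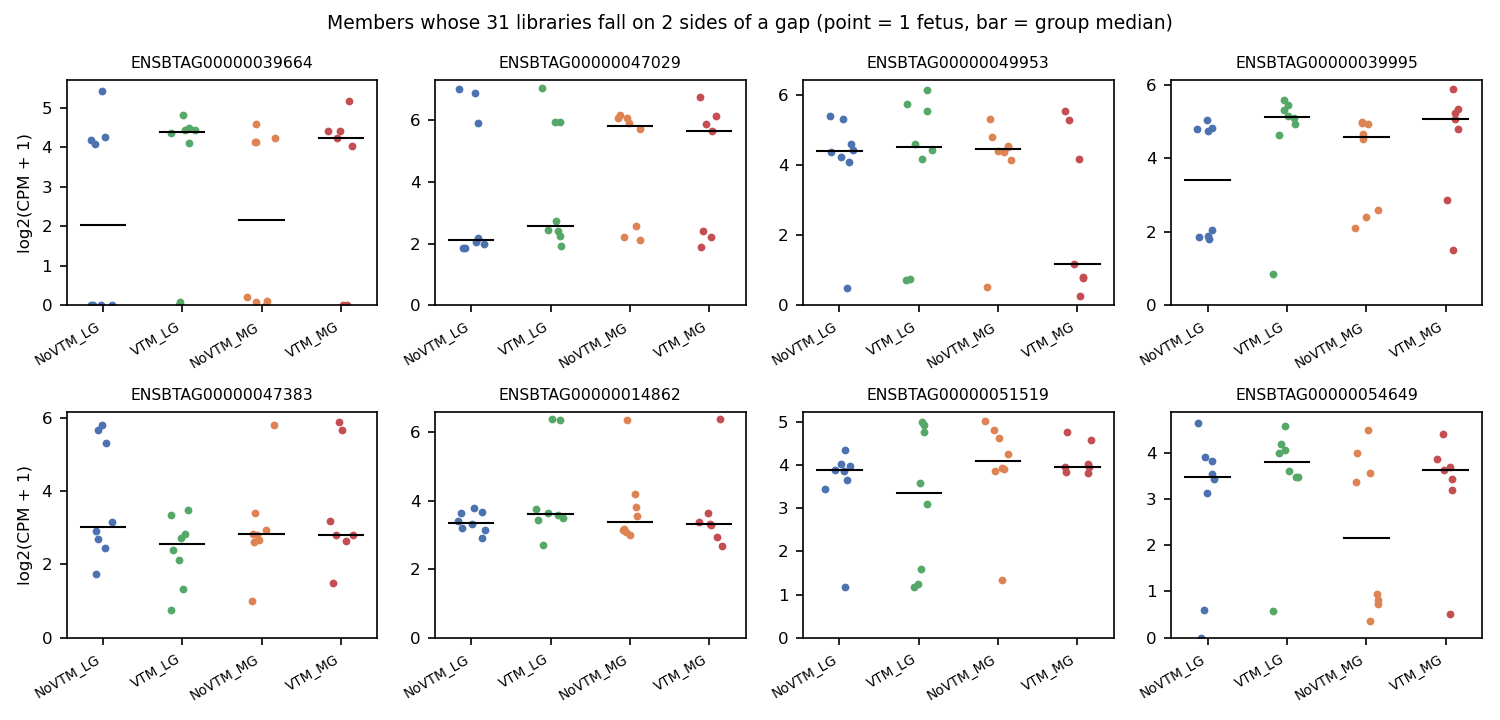
Levels of 8 members with a wide gap, as log2(CPM + 1) on the vertical axis, with 1 point per fetus, 1 column per treatment group and a bar at the group median. In most panels both sides of the gap hold fetuses of several groups, and a group median can fall in the gap where few or no fetuses lie.

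Gaps at the same fetuses were found in 2 sets of members. The first comprised ENSBTAG00000015591, ENSBTAG00000015611, ENSBTAG00000009738 and ENSBTAG00000009737, each of which had 0 counts in NoVTM_LG replicate 4 and in NoVTM_MG replicate 3. These 2 libraries were not shallow, with 15762924 and 13931973 counts. With 0 counts taken as the 3 counts that they allow per library (0.19 and 0.215 CPM, of which the higher is used), the lowest of the other 29 libraries was at least 239-fold higher for ENSBTAG00000015591, 58.7-fold for ENSBTAG00000015611, 51.9-fold for ENSBTAG00000009738 and 25.6-fold for ENSBTAG00000009737.

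The other 29 libraries were again cut at their widest gap. It was 0.642 for ENSBTAG00000015591, 0.538 for ENSBTAG00000015611 and 0.545 for ENSBTAG00000009738, each under the 1 of a wide gap. ENSBTAG00000015591 had 51.4 to 80.4 CPM in 17 of them and 125.9 to 150.9 CPM in 12, a ratio of medians of 2.31. ENSBTAG00000015611 had 12.6 to 18.7 CPM in the same 17 and 27.6 to 32.2 CPM in the same 12, a ratio of 1.93. ENSBTAG00000009738 had 11.2 to 17.3 CPM in these 17 and 25.8 to 31.6 CPM in these 12, a ratio of 2.14. These 3 genes thus ordered the fetuses into the same 3 levels of 2, 17 and 12 without a single exchange.

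ENSBTAG00000009737 followed the same division less sharply, with 5.52 to 12.6 CPM in the 17 and 14.1 to 29.2 CPM in the 12, a ratio of 2.38. Its own widest gap among the 29 lay elsewhere and left 21 and 8 libraries. The 4 genes had a mean r of 0.97 among themselves over 31 libraries and of 0.91 over 29, without the 2 at 0. The intermediate level held 4 fetuses of NoVTM_LG, 6 of VTM_LG, 5 of NoVTM_MG and 2 of VTM_MG, and the top level held 3, 2, 2 and 5 in the same order.

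One further gene outside the members showed the 2 zeros. ENSBTAG00000015602 had 0 counts in both libraries, but its mean of 4.55 CPM lay under the minimum of 10 CPM. It had 2.35 to 5.31 CPM in the 17 libraries and 5.01 to 8.99 CPM in the 12, so these levels overlapped. Its r with the mean of the set was 0.92, and it was the only one of 13175 other genes with a mean of at least 1 CPM that reached 0.8.

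**Figure D3:**
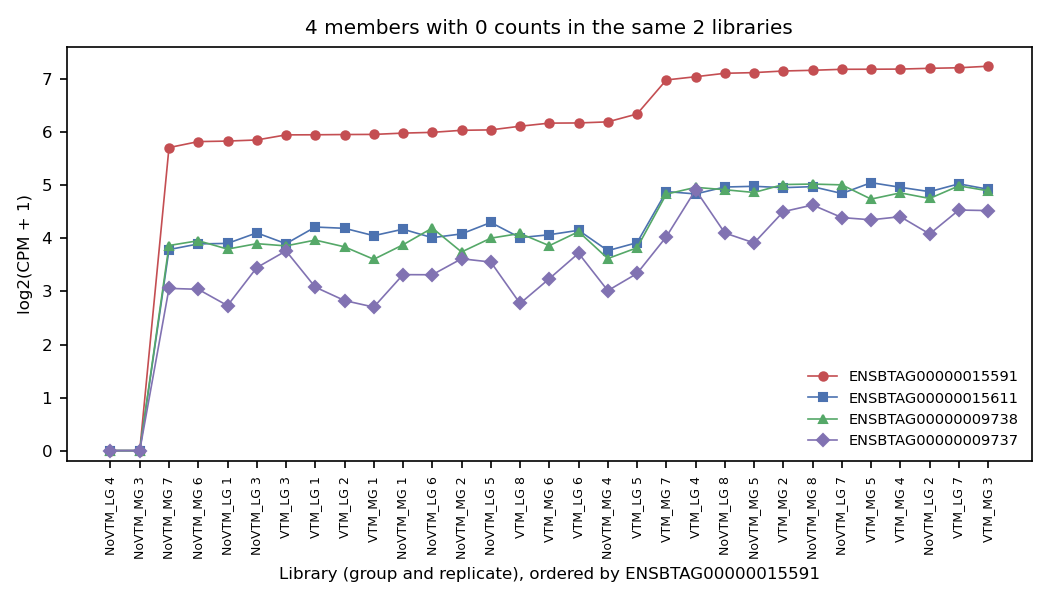
Levels of the 4 members with 0 counts in the same 2 libraries, as log2(CPM + 1) on the vertical axis, for each of the 31 libraries ordered by ENSBTAG00000015591. After the 2 libraries at 0 come 17 at an intermediate level and 12 at a higher one, the same libraries for ENSBTAG00000015591, ENSBTAG00000015611 and ENSBTAG00000009738.

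The second set with shared gaps held ENSBTAG00000054649, ENSBTAG00000046257 and ENSBTAG00000014402. The same 8 libraries lay below the gap in all 3, namely 2 of NoVTM_LG, 1 of VTM_LG, 4 of NoVTM_MG and 1 of VTM_MG. ENSBTAG00000054649 had 0 to 0.919 CPM there and 7.80 to 23.9 CPM in the other 23. ENSBTAG00000046257 had 0.215 to 1.10 CPM against 6.22 to 26.0 CPM, and ENSBTAG00000014402 had 1.91 to 4.84 CPM against 14.4 to 54.6 CPM.

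ENSBTAG00000016766 and ENSBTAG00000012078 were low in mostly the same fetuses but had no such gap. ENSBTAG00000016766 had 2.53 to 8.92 CPM in the 8 libraries and 8.63 to 20.4 CPM in the 23, and 7 of its 8 lowest libraries were among the 8. ENSBTAG00000012078 had 3.67 to 20.9 CPM against 15.2 to 39.0 CPM, also with 7 of its 8 lowest among them. Within the 23 other libraries alone, the mean r of these 5 genes was 0.75, with a range of 0.58 to 0.90.

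Sets of members that rose and fell together were then sought across all 100 by average-linkage clustering on r, with sets separated at r = 0.5. It gave 7 sets of at least 4 members, with 38 members in all. A further 30 members were in groups of 2 or 3, and 32 stood alone. Of the 4950 pairs of members, 48 had r of at least 0.8, which is 0.97%, beside 0.464% of all pairs of ranked genes. The median absolute r was 0.15 among members and 0.22 among all ranked genes. Of the 49 pairs with an absolute r of at least 0.8, 46 lay inside a set.

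Set A was the largest, with 10 members, a mean r of 0.75, and no member with a wide gap. Its members with the highest mean r to the rest were ENSBTAG00000013917 (8.74 to 31.4 CPM over the 31 libraries), ENSBTAG00000014429 (19.1 to 89.1 CPM) and ENSBTAG00000017122 (50.7 to 202.7 CPM). In 9 of the 10 members VTM_MG replicate 4 was the highest library, and in 7 the lowest was VTM_LG replicate 4 or 7, the libraries that stood apart. Many genes outside set A moved with it. They were sought among 13171 genes with a mean of at least 1 CPM, a pool that held the members outside set A. Of these genes 405, or 3.07%, had r of at least 0.8 with its mean. Without VTM_LG replicates 4 and 7 there were 612. The corresponding count for the other 6 sets was 0 to 7 genes, and 0 to 11 without these 2 libraries.

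Set B contained the 4 genes at 0 in 2 libraries, with ENSBTAG00000022514 and ENSBTAG00000018499. The last 2 were less close to the 4 without those libraries. Their mean r with the 4 was 0.61 and 0.57 over 31 libraries, and 0.27 and 0.42 over the 29 without NoVTM_LG replicate 4 and NoVTM_MG replicate 3. In those 2 libraries ENSBTAG00000022514 had 9.07 and 6.10 CPM, and ENSBTAG00000018499 had 7.17 and 1.08 CPM, so neither gene was at 0. Set C was the set with the 8 low libraries described above, with a mean r of 0.91.

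Set D had 5 members and a mean r of 0.77. Its most variable gene, ENSBTAG00000001945, ran from 3.98 CPM in NoVTM_MG replicate 7 to 115.9 CPM in NoVTM_LG replicate 3, with a median of 13.7 CPM. NoVTM_LG replicate 3 was also the highest library of ENSBTAG00000005998 (7.32 to 33.7 CPM) and ENSBTAG00000011437 (7.97 to 49.3 CPM). The 2 libraries farthest from the median of the set mean were NoVTM_LG replicate 3 and NoVTM_MG replicate 8. Without them the mean r was 0.71. With the 2 farthest libraries of each set left out in this way, it was 0.69 in set A, 0.56 in set B, 0.88 in set C and 0.86 in set E. The lowest r of a pair in set A was then 0.27.

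Set E had 4 members and a mean r of 0.89. ENSBTAG00000001595 ran from 107 to 995 CPM, ENSBTAG00000054808 from 219 to 1473 CPM and ENSBTAG00000023659 from 79.95 to 530.004 CPM. All 3 were lowest in NoVTM_MG replicate 6 and highest in VTM_MG replicate 5. The fourth, ENSBTAG00000038706, ran from 4.91 CPM in NoVTM_LG replicate 1 to 96.6 CPM, again in VTM_MG replicate 5. For ENSBTAG00000001595 the groups overlapped widely, with medians of 330.7 CPM in NoVTM_LG, 469.4 CPM in VTM_LG, 235.3 CPM in NoVTM_MG and 400.8 CPM in VTM_MG.

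Sets F and G, of 4 members each, were looser, with a mean r of 0.69 and 0.56. Without VTM_LG replicates 4 and 8, left out by the same rule as in set D, the mean r of set F was 0.63. Without NoVTM_MG replicate 1 and VTM_LG replicate 6, by the same rule, that of set G was 0.48, under the 0.5 at which sets were separated. Set F was led by ENSBTAG00000009844 (17.4 to 121.9 CPM), ENSBTAG00000004322 (6.17 to 36.6 CPM) and ENSBTAG00000006367 (4.53 to 24.5 CPM). Set G was led by ENSBTAG00000012801 (6.501 to 45.1 CPM), ENSBTAG00000002853 (6.84 to 32.1 CPM) and ENSBTAG00000052659 (9.01 to 29.5 CPM). Between sets the correlations of the means were mostly weak. The highest was 0.53, between A and F, and the lowest was −0.45, between D and G.

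The pairs outside the sets included the only strong negative one. ENSBTAG00000038058 and ENSBTAG00000038323 had r = −0.82. At its widest gap, ENSBTAG00000038058 had 16.9 to 28.1 CPM in 6 libraries and 5.17 to 10.9 CPM in the other 25. ENSBTAG00000038323 had 12.6 to 20.3 CPM in the same 6 libraries and 25.9 to 63.4 CPM in the same 25, with no overlap. These gaps, 0.589 and 0.338 on the log2(CPM + 1) scale, were under the 1 of a wide gap. ENSBTAG00000051364 and ENSBTAG00000043567 had r = 0.81.

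**Figure D4:**
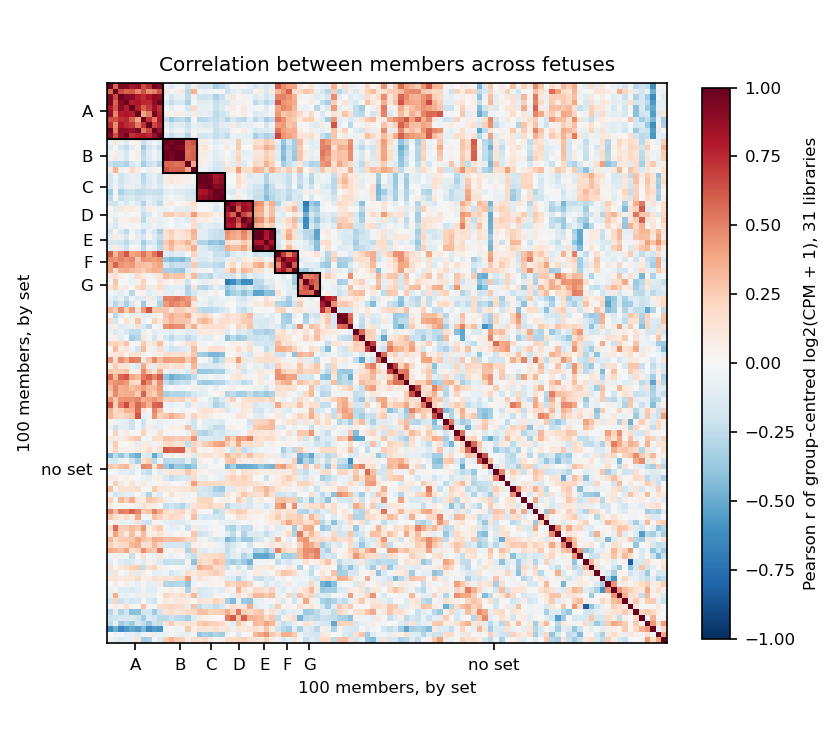
Pearson r between each pair of the 100 members over 31 libraries, from log2(CPM + 1) with group means subtracted, on a colour scale from −1 to 1. Boxes mark sets A to G, and the members outside the boxes are in groups of 2 or 3 or alone. Outside the boxes most pairs are pale, apart from A with F.

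The treatments were then compared in these genes. The choice of members did not use the differences between group means, but it used the spread within groups, against which each contrast is tested, so a large spread makes it harder for a member to pass. No member passed an adjusted p of 0.05 in any of the 9 contrasts by edgeR's quasi-likelihood test, DESeq2 or limma voom. For gain averaged over supplementation, 0.0211% of the 14228 genes passed in edgeR, 0.0633% in DESeq2 and 0.0211% in limma voom. In edgeR 3 members had an unadjusted p under 0.05, beside 7.82% of all genes. For supplementation averaged over gain, 0% of genes passed in edgeR and limma voom and 0.0211% in DESeq2, and 7 members had an unadjusted p under 0.05, beside 2.9% of all genes. For the interaction, whether supplementation acted differently at the 2 rates of gain, 0% passed in each tool, and 3 members had an unadjusted p under 0.05, beside 10.7% of all genes.

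The 6 pairwise contrasts gave 0 members by each tool as well. In edgeR and limma voom 0% of all genes passed in each of the 6. In DESeq2 the share was 0.0633% in NoVTM_MG against NoVTM_LG, 0.00703% in VTM_MG against VTM_LG, 0.00703% in VTM_MG against NoVTM_LG, 0.0422% in VTM_LG against NoVTM_MG and 0% in the other 2. Unadjusted p under 0.05 was found for 2 members in NoVTM_MG against NoVTM_LG (4.59% of all genes), 5 in VTM_MG against VTM_LG (14.8%) and 8 in VTM_LG against NoVTM_LG (8.25%). It was found for 4 members in VTM_MG against NoVTM_MG (4.57%), 6 in VTM_MG against NoVTM_LG (2.85%) and 8 in VTM_LG against NoVTM_MG (8.93%). These contrasts share groups, so their counts are not independent.

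The contrasts were less precise in the members than over all genes, which the choice of members for a large spread within groups fixes, so these values are a description. The median standard error (SE) of a log2 fold change for gain was 0.21 in the members and 0.08 over all genes. The 95% interval lay wholly within a 2-fold change in either direction for 86% of members and 98.7% of all genes for gain, and for 83% and 98.8% for supplementation. For the interaction it did so for 33% of members and 86% of all genes. For the remaining members a 2-fold change was not excluded by the interval. The median log2 fold change of the members was 0.01 for gain and 0.01 for supplementation, and of all genes −0.001 and −0.001.

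The members nearest a response to gain did not separate the groups. ENSBTAG00000054798 had 4.53, 10.4 and 31.7 CPM as lowest, median and highest value in NoVTM_LG and 4.91, 11.4 and 41.9 CPM in VTM_LG. It had 6.45, 19.1 and 44.8 CPM in NoVTM_MG and 10.9, 36.5 and 45.0 CPM in VTM_MG. The medians were higher at moderate gain, but the ranges overlapped in all groups. Its widest gap was 0.718 on the log2(CPM + 1) scale, under the 1 of a wide gap. It left 19 libraries below and 12 above, with fetuses of each group on both sides, so a median can hide this division. The log2 fold change of ENSBTAG00000054798 was 0.94 (SE 0.32), with an adjusted p of 0.562 by edgeR. ENSBTAG00000054844, which has a wide gap, had medians of 12.8 and 13.3 CPM in NoVTM_LG and VTM_LG and of 9.41 and 8.41 CPM in NoVTM_MG and VTM_MG. Its log2 fold change was −0.65 (SE 0.28), with an adjusted p of 0.624 by edgeR, and each group had at least 1 fetus at 1.88 to 2.59 CPM.

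For supplementation the smallest p among the members belonged to ENSBTAG00000038706, the fourth gene of set E. It had 4.91, 10.5 and 25.3 CPM as lowest, median and highest value in NoVTM_LG and 16.4, 23.7 and 40.3 CPM in VTM_LG. It had 5.67, 12.1 and 22.0 CPM in NoVTM_MG and 5.87, 18.8 and 96.6 CPM in VTM_MG. Its medians were higher with the premix at both rates of gain, and the ranges overlapped at both. The log2 fold change was 1.10 (SE 0.29), with an unadjusted p of 0.00054 and an adjusted p of 0.854 by edgeR.

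The smallest p in the other direction belonged to ENSBTAG00000051364. It had 299, 676 and 1425 CPM in NoVTM_LG and 219, 390 and 799 CPM in VTM_LG. It had 468, 830 and 1693 CPM in NoVTM_MG and 293, 456 and 785 CPM in VTM_MG, again with overlapping ranges. The log2 fold change was −0.77 (SE 0.21), with an adjusted p of 0.9996 by edgeR.

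For the interaction the smallest p belonged to a member with a wide gap. ENSBTAG00000047383 had 3 of 8 high fetuses in NoVTM_LG, 0 of 8 in VTM_LG, 1 of 8 in NoVTM_MG and 2 of 7 in VTM_MG, while the group medians were 7.23, 4.94, 6.08 and 5.98 CPM. The interaction was 2.73 on the log2 scale (SE 1.02), with an adjusted p of 0.431 by edgeR. In the other direction ENSBTAG00000043567 had medians of 598.7 CPM in NoVTM_LG, 415.1 CPM in VTM_LG, 719.2 CPM in NoVTM_MG and 453.2 CPM in VTM_MG. Its interaction was −1.08 (SE 0.54), with an adjusted p of 0.471 by edgeR, and −0.21 without VTM_LG replicates 4 and 7, the first of which held its highest value.

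**Figure D5:**
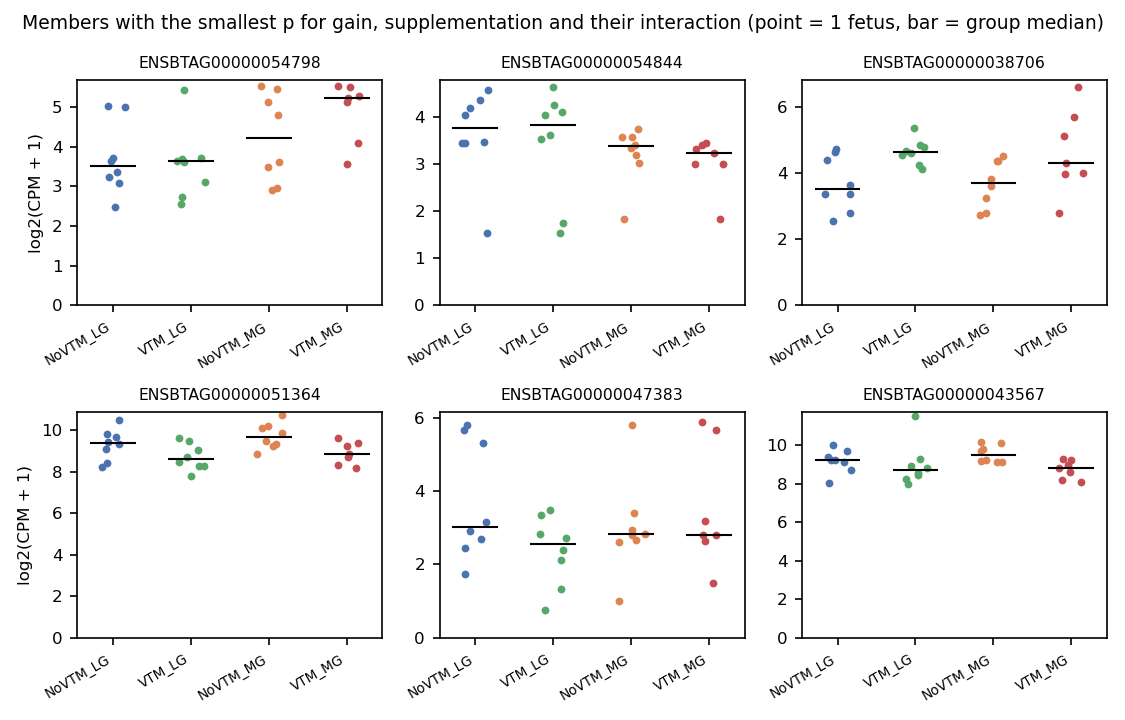
Levels of the 6 members with the smallest p in each direction for gain, supplementation and their interaction, as log2(CPM + 1) on the vertical axis, with 1 point per fetus and a bar at the group median. The groups overlap in all 6. In the main edgeR fit no adjusted p is under 0.431 for the contrast each gene was named for, and under the alternatives run the lowest is 0.308, for ENSBTAG00000054798.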

How the data were processed

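The table deposited by the authors holds raw counts per gene, whole numbers without normalization, for 27607 Ensembl bovine gene identifiers in 31 libraries. Per the labels, the libraries were strand-specific and read at 150 bp from both ends. In the submitters' processing notes stand CASAVA, FastQC 0.11.8, MultiQC 1.9, STAR 2.7.3a and edgeR, with no role or order. The genome build, annotation, counting program and use of strand were not given in the sources used here, so reads shared with similar, overlapping or antisense genes could not be checked. The supplied gene table lists 37063 genes and holds 0 Ensembl identifiers, so no symbols, positions or sequences are given.

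Columns were matched to samples by title, and groups came from the treatment label. Replicate numbers are names in accession order. No batch is given per sample. The spread behind the p-values is that between fetuses of separate heifers bred to 1 sire.

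CPM was the count divided by the column total, and SDs of log2(CPM + 1) used n − 1 as divisor. Of 15 identifiers to be dropped, 0 were among the 100 genes. The widest gap of a gene was the largest gap between neighbouring libraries with at least 2 on each side. It was called a wide gap where it was at least 1 on the log2(CPM + 1) scale. The counting SD is what Poisson sampling at the mean count over the libraries would give on the log2 scale of the count, as an approximation. The contrasts used edgeR 4.0.16 in R 4.3.3: filterByExpr (minimum count 10, minimum total 15) left 14228 genes, all 100 members included. TMM scaling was used, with 1 mean per group over all libraries, the quasi-likelihood F test and Benjamini-Hochberg adjustment over all genes tested. DESeq2 1.42.0 and limma 3.58.1 (voom) were alternatives, with other scaling, filters, fits, spread measures, pseudocounts and minimum levels. The choice of members, the gaps and the edgeR contrast for gain were also run on simulated counts, and the outcome is not given here.

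The members and lists were chosen with earlier results of these data known. Genes named were the 10 with the largest SD, the 3 most central of each set, the smallest p in each direction for gain, supplementation and interaction, the 2 on each side of the rank threshold, and the 3 with the largest and smallest share from 1 library. This gave more than the intended limit of about 20 identifiers, which was exceeded. Further genes with a wide gap, other genes of sets B and C, the genes paired with a member and ENSBTAG00000015602 were chosen after their values were seen.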

Additional observations from a re-analysis of the deposited data

Results flagged for a closer look

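For 41 members and the total counts, 168 groups of libraries were checked for a highest or lowest library whose distance to the nearest other, divided by the range of the group (log2(CPM + 1) for genes), passed Dixon's 95% value. This found 28 cases in 17 genes. Chance gives about 1 in 20 groups, and the members were chosen for a large spread, so no count of such cases is read as a result.

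The lowest library stood apart in 23 cases. NoVTM_LG replicate 4 did so in its group for ENSBTAG00000015591 (0.81 of the range), ENSBTAG00000015611 (0.786), ENSBTAG00000009738 (0.758), ENSBTAG00000009737 (0.622), ENSBTAG00000015750 (0.706) and ENSBTAG00000051519 (0.717). NoVTM_MG replicate 3 did so for ENSBTAG00000015591 (0.797), ENSBTAG00000015611 (0.757), ENSBTAG00000009738 (0.721), ENSBTAG00000009737 (0.651) and ENSBTAG00000049953 (0.753). VTM_MG replicate 6 did so for ENSBTAG00000054649 (0.69), ENSBTAG00000046257 (0.721), ENSBTAG00000014402 (0.842) and ENSBTAG00000016766 (0.633). VTM_LG replicate 1 did so for ENSBTAG00000054649 (0.721) and ENSBTAG00000046257 (0.531).

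NoVTM_LG replicate 1 was the low library for ENSBTAG00000049953 (0.736) and ENSBTAG00000054844 (0.626). The last gene was also low in NoVTM_MG replicate 7 (0.625) and VTM_MG replicate 4 (0.719). VTM_LG replicate 4 was low for ENSBTAG00000039995 (0.801), and NoVTM_MG replicate 5 for ENSBTAG00000051519 (0.686).

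The highest library stood apart for ENSBTAG00000014429 in VTM_LG replicate 8 (0.576), ENSBTAG00000054798 in VTM_LG replicate 7 (0.6) and ENSBTAG00000043567 in VTM_LG replicate 4 (0.642). ENSBTAG00000014862 was high in NoVTM_MG replicate 2 (0.643) and in VTM_MG replicate 5 (0.739).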

How the results depend on the processing

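The count of members past an adjusted p of 0.05 was 0 in each of the 9 contrasts under each alternative run, an adjusted p of 0.10 included. The membership depended on the minimum level: 61 of the 100 genes were chosen with a minimum mean of 5 CPM, and 57 with 20 CPM, where 43 members fall under the minimum by construction. Other settings kept 76 (median absolute deviation) to 100 members. The number of sets was 7 with TMM scaling, Spearman's rho or without VTM_LG replicates 4 and 7, 8 at r = 0.4 and 6 at r = 0.6. Only the number of sets was compared here, not which members they held. Members with a wide gap numbered 19 at a gap of 0.8 and 13 at 1.5, and 17 with TMM scaling or without the 2 libraries; these alternatives, and n as the divisor of the SD, which kept 100 members, were chosen after seeing the data. The 6 members named for a contrast kept their direction in each setting. The interaction of ENSBTAG00000043567 ranged from −1.08 to −0.21, with adjusted p of 0.475 to 0.934 over its alternatives. Leaving out each library in turn was not run, as groups held 7 or 8 fetuses. No paired analysis was possible because the labels give no replicate numbers shared across groups. Members near 10 CPM rest on about 148 counts per library, so their low levels are the least precise.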
